A study of Mus musculus with 8 samples.

Results

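The 8 genes described here encode enzymes of the ubiquitin pathway and a nuclear exporter known from terminal red cell maturation, and were taken by symbol as Trim10, Trim58, Rnf123, Fbxo7, Ube2o, Ube2l6, Ube2h and Xpo7. All 8 had a row among the 24454 gene rows of the count table, and all 8 passed the filter on low counts. Of these, Trim10, Trim58 and Rnf123 are RING-type ligases or candidate ligases, Fbxo7 is the substrate receptor of a ligase, Ube2l6 and Ube2h are conjugating (E2) enzymes, Ube2o is a hybrid of both kinds, and Xpo7 is no ubiquitin enzyme but an export receptor. RNA was read from 8 small pools of cells sorted from the mouse yolk sac at stage E11.5, with 3 sorted populations. The double positive population (2 pools of 24 cells, replicates 7 and 8) carried both the endothelial surface protein VE-Cadherin and green fluorescent protein (GFP). The erythroid population (3 pools of 25 cells, replicates 4 to 6) carried GFP without VE-Cadherin, and the endothelial population (3 pools of 25 cells, replicates 1 to 3) carried VE-Cadherin without GFP. Every pool came from embryos of the strain given as miR144-451+/GFP C57BL/6, in which GFP stands at 1 allele of the locus of the red cell microRNAs miR-144 and miR-451, so the control populations carry that allele too. The labels do not say whether the pools came from separate embryos, so a p-value here speaks of the spread among pools alone, and that spread could be technical.

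Maturing red cell precursors discard most of their proteome, condense the nucleus and in mammals expel it, while haemoglobin is kept. Ubiquitin is passed from an activating (E1) enzyme to an E2 enzyme and, with the help of a ligase (E3) that picks the target, onto proteins that the proteasome then degrades. In the mouse, Trim58 directs dynein for degradation in late erythroblasts, Ube2o clears ribosomes from reticulocytes, and Xpo7 takes part in nuclear condensation. At the stage sampled, the yolk sac holds primitive erythroblasts, which still have a nucleus.

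Total counts ran from 4637930 to 4818074 in double positive, from 5291843 to 7618444 in erythroid and from 3723128 to 4439165 in endothelial libraries. Levels are given as normalised CPM, counts as a share of the effective library size set by trimmed mean of M values factors, because globin RNA took 8.86% and 14.0% of counts in double positive libraries and 54.5% to 56.5% in erythroid libraries. All 12 erythroid markers had counts in every double positive and erythroid library, and Gata1, the erythroid transcription factor, averaged 14.0 ± 1.19 CPM in double positive libraries (SD, n = 2), 287 ± 44.1 CPM in erythroid libraries (SD, n = 3) and 0 in endothelial libraries. Markers of other cells were also found in these pools. The summed level of 10 visceral endoderm markers was 90243 and 90351 CPM in double positive libraries, 10.1 to 22.2 CPM in erythroid libraries and 30.1 to 45.9 CPM in endothelial libraries. The summed level of 10 macrophage markers was 300.3 and 254 CPM in double positive libraries (4 and 10 markers with counts), 0 in all erythroid libraries, and 1360, 3181 and 1460 CPM in endothelial replicates 1, 2 and 3. Fcgr3 averaged 150 ± 66.5 CPM and Mrc1 78.7 ± 17.9 CPM in double positive libraries (SD, n = 2), most of that sum there. C1qa, C1qb and C1qc averaged 1.63, 6.92 and 4.48 CPM there, against 91.7, 297 and 199 CPM in endothelial libraries. The sums therefore do not order the double positive libraries by macrophage RNA. The summed level of 7 megakaryocyte and platelet markers was 5.73 and 60.5 CPM in double positive libraries, 28.7 to 43.3 CPM in erythroid libraries, and 499, 941 and 566 CPM in endothelial replicates 1, 2 and 3. Pf4 alone averaged 641 ± 230 CPM in endothelial libraries (SD, n = 3), which is most of that sum there. The summed level of 9 endothelial markers was 577 and 762 CPM in double positive libraries, 1.95 to 9.08 CPM in erythroid libraries, and 5729, 4119 and 5015 CPM in endothelial replicates 1, 2 and 3. What part these other cells have in the values below was not tested. In pools of this kind, fewer cells of a type and less RNA per cell cannot be told apart.

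The promoters are shown for the 5 members that passed the test between erythroid and endothelial libraries, so that their letters stand beside their levels. RefSeq's promoter table (GRCm38.p6) held 6 of the 8 members, with Ube2o and Xpo7 the others. Each sequence is the 250 bases before the first RefSeq start listed, read 5′ to 3′ on the gene's strand. Capitals mark a GATA-type match (AGATAA or AGATAG, with TGATAA and also TGATAG counted) or a KLF-type match (CCNCNCCC), on either strand. Such a match is a description of letters and not a binding site. The windows are chr17:36869324-36869573 (plus strand) for Trim10, chr11:58640215-58640464 (plus) for Trim58, chr2:84798578-84798827 (plus) for Ube2l6, chr9:108079302-108079551 (minus) for Rnf123 and chr10:86021679-86021928 (plus) for Fbxo7.
Trim10: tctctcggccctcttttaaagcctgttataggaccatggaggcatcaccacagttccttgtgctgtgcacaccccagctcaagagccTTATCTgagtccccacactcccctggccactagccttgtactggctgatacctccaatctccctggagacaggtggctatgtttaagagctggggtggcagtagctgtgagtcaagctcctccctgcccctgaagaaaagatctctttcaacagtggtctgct
Trim58: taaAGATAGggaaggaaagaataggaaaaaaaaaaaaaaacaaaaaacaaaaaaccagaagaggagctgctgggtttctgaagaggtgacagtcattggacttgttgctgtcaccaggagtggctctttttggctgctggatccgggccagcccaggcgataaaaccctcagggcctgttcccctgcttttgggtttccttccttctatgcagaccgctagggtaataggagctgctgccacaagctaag
Ube2l6: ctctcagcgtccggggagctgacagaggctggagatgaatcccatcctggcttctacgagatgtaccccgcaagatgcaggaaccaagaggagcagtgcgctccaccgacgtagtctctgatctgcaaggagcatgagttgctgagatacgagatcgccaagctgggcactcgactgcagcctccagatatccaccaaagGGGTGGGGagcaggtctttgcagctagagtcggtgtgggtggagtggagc
Rnf123: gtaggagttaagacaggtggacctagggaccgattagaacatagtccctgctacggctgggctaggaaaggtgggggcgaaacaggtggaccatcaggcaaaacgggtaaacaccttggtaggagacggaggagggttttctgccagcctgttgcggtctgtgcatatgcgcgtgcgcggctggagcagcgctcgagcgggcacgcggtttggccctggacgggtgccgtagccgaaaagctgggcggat
Fbxo7: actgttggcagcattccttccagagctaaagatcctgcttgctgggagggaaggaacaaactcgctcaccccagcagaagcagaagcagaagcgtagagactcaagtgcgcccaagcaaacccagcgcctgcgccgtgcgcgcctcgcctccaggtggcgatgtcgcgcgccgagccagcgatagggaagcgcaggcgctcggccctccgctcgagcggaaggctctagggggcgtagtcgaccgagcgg

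Trim10 had 1 GATA-type match, TTATCT, 163 bases before its start, and Trim58 had 1, AGATAG, 247 bases before. Ube2l6 had no GATA-type match and 1 KLF-type match, GGGTGGGG, 50 bases before its start. Rnf123 and the first start of Fbxo7 had neither. The Rnf123 window lies inside the span that GENCODE gives the gene (chr9:108051534-108083346, minus strand), so the bases before its outermost GENCODE start were not read. Of 32851 promoter windows of the same length, 26.5% held a GATA-type match and 45.9% a KLF-type match. A single match in a window of this length was therefore common. Ube2h, which passed no test between the populations, had 5 partly overlapping KLF-type matches before its first start, and both types before its second.

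Between erythroid and endothelial libraries, 5 of the 8 genes were higher in erythroid libraries and none was lower by edgeR's quasi-likelihood test, at a Benjamini-Hochberg adjusted p under 0.05 over 12136 genes. Over all genes tested, 14.4% were called higher and 26.6% lower, 41.0% in all. The members, and the lists read below, were chosen with earlier results of these data known. Their counts beside those of all genes are therefore a description and no test of the groups. The 5 were Trim10, Trim58, Ube2l6, Rnf123 and Fbxo7, and they are also the 5 whose erythroid libraries all lay above all endothelial libraries, against 18.7% of all genes tested (and 32.1% lying wholly below). Ube2o, Xpo7 and Ube2h overlapped between these populations. The median log2 difference of the 8 genes was 3.15, against -0.36 over all genes tested. Scaled by library size alone, all 5 still passed, with smaller log2 differences of 5.78 for Trim58, 4.51 for Ube2l6, 2.04 for Rnf123 and 1.18 for Fbxo7. The plot of levels by library shows the 8 genes side by side.

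**Figure D1:**
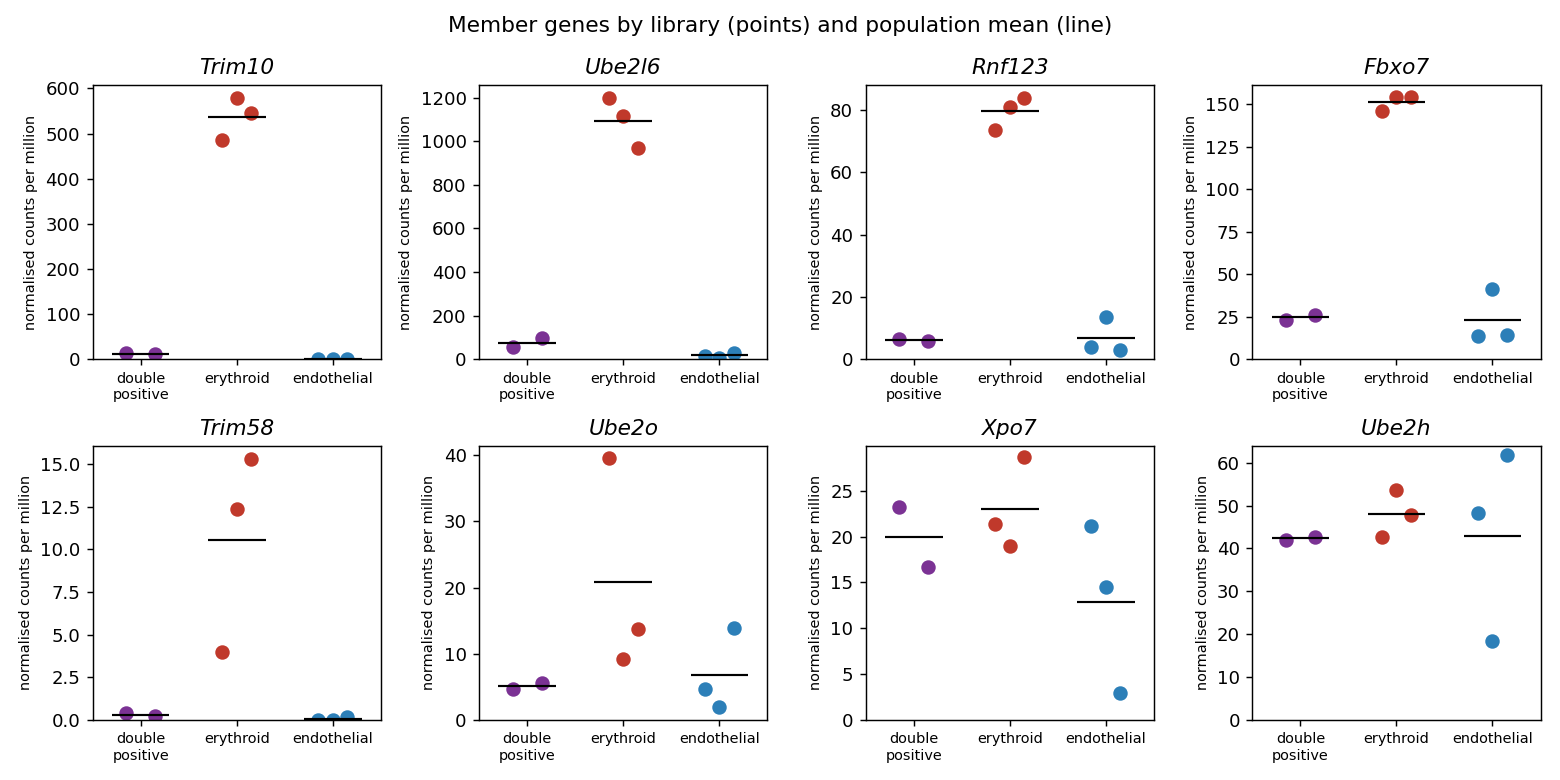
Normalised CPM of each member gene (vertical axis, linear, starting at 0 and scaled for each gene) in every library (points) of the double positive, erythroid and endothelial populations, with lines at the means. Trim10, Ube2l6, Rnf123, Fbxo7 and Trim58 have all 3 erythroid points above every other point, while Xpo7 and Ube2h have points of the 3 populations at overlapping heights.

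Trim10 encodes an erythroid TRIM protein that was found in the mouse as a factor needed for terminal differentiation of red cell precursors (chr17:36869574-36877833, plus strand, GRCm38, 7 exon blocks). Its level was 13.6 and 10.4 CPM in double positive libraries, 486, 579 and 546 CPM in erythroid libraries, and 0 in all 3 endothelial libraries. No 2 populations overlapped. Erythroid libraries had at least 3528-fold more than endothelial libraries, taking 3 counts over the group as the floor for a count of 0 (adjusted p = 9.34e-07, edgeR), a bound of 2186 to 3735 with 1 library left out. This floor covers counting error only, since the reads carried no molecular identifiers. Double positive libraries had at least 79.8-fold more than endothelial libraries (adjusted p = 4.36e-05, edgeR; 49.4 to 89.99 with 1 library left out) and 44.7-fold less than erythroid libraries (log2 difference -5.48, SE 0.24, adjusted p = 1.18e-05, edgeR).

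Trim58 encodes the dynein-directed ligase (chr11:58640465-58652404, plus strand, 6 exon blocks). It had few counts in every library. Its level was 0.382 and 0.204 CPM in double positive libraries, 3.96, 12.4 and 15.3 CPM in erythroid libraries, and 0, 0 and 0.161 CPM in endothelial libraries. These levels rest on 3, 103 and 1 counts in double positive, erythroid and endothelial libraries. Erythroid libraries stood above the rest, and replicate 4 was the lowest of them. The ratio of erythroid to endothelial libraries was 195, with a 95% counting interval of 34.2 to 7775 (adjusted p = 0.00225, edgeR). Without endothelial replicate 3, which held the 1 endothelial count, it was at least 44.8-fold. Double positive libraries were 33.1-fold lower than erythroid libraries, with a 95% counting interval of 11.0 to 163 (adjusted p = 0.0174, edgeR). That call was lost without double positive replicate 7 (adjusted p = 0.119) or without replicate 8 (adjusted p = 0.156). No fold is given between double positive and endothelial libraries, since both held 3 counts or fewer. The counting intervals of Trim58 cover counting error only and leave out the spread between pools.

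Rnf123, also called KPC1, encodes the catalytic subunit of a ligase for the cell cycle inhibitor p27 (chr9:108051534-108083346, minus strand, 40 exon blocks). Its level was 6.30 and 5.70 CPM in double positive libraries, 73.6, 81.1 and 84.0 CPM in erythroid libraries, and 3.83, 13.5 and 2.74 CPM in endothelial libraries. The erythroid libraries stood together and far above the rest, and the double positive libraries lay within the endothelial range. Erythroid libraries had 11.9-fold more than endothelial libraries (log2 difference 3.57, SE 0.57, adjusted p = 0.00109, edgeR), and without endothelial replicate 2 the log2 difference was 4.57. Double positive libraries had 13.2-fold less than erythroid libraries (log2 difference -3.72, SE 0.68, adjusted p = 0.0028, edgeR). Exons of Rnf123 share 751 bases, 14.9% of its exon length, with Gmppb on the opposite strand. The counting strand is not given in the sources used here, so reads of the shared bases cannot be told apart. Gmppb itself had 655 counts in all.

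Fbxo7 encodes an F-box protein that joins substrates to a cullin ligase, binds the proteasome regulator PI31, and is needed for normal red cell production in mice (chr10:86021972-86051873, plus strand, 10 exon blocks). Its level was 22.9 and 26.1 CPM in double positive libraries, 146, 154 and 154 CPM in erythroid libraries, and 13.3, 41.5 and 14.2 CPM in endothelial libraries. Erythroid libraries again stood clear of both other populations, whose ranges overlapped. Erythroid libraries had 6.60-fold more than endothelial libraries (log2 difference 2.72, SE 0.43, adjusted p = 0.000996, edgeR), and without endothelial replicate 2 the log2 difference was 3.45. Double positive libraries had 6.19-fold less than erythroid libraries (log2 difference -2.63, SE 0.50, adjusted p = 0.00328, edgeR). The highest endothelial library for both Fbxo7 and Rnf123 was replicate 2. That library also had the highest macrophage and megakaryocyte marker sums, the second mostly Pf4, and the lowest endothelial marker sum. Ube2l6, Ube2o and Ube2h had their lowest endothelial level in the same library, and Xpo7 lay between the others. What part the marker sums have in these levels was not tested. Without that library Fbxo7 passed the test between double positive and endothelial libraries as well (log2 difference 0.82, adjusted p = 0.0344).

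Ube2l6 encodes the E2 enzyme of the ubiquitin-like protein ISG15, which also works with ubiquitin (chr2:84798828-84810335, plus strand, 4 exon blocks). Its level was 53.3 and 95.3 CPM in double positive libraries, 1199.9, 1115 and 968 CPM in erythroid libraries, and 14.0, 5.70 and 29.9 CPM in endothelial libraries. The 3 populations did not overlap. Erythroid libraries had 66.3-fold more than endothelial libraries (log2 difference 6.05, SE 0.56, adjusted p = 5.6e-05, edgeR). Double positive libraries had 4.50-fold more than endothelial libraries (log2 difference 2.17, SE 0.52, adjusted p = 0.0192, edgeR) and 14.7-fold less than erythroid libraries (log2 difference -3.88, SE 0.60, adjusted p = 0.00111, edgeR). The call between double positive and endothelial libraries was lost without double positive replicate 8 (log2 difference 1.68, adjusted p = 0.146) or without endothelial replicate 1 (2.05, adjusted p = 0.0655). Without endothelial replicate 3, the highest of its group, the log2 difference was 2.88 for double positive and 6.77 for erythroid against endothelial libraries. It was also lost when libraries were scaled by their size alone (1.52, adjusted p = 0.0611).

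Ube2h encodes the E2 enzyme that works with the CTLH ligase, a complex that in erythroid cells holds Maea (chr6:30211289-30304539, minus strand, 7 exon blocks). Its level was 42.0 and 42.7 CPM in double positive libraries, 42.6, 53.5 and 47.9 CPM in erythroid libraries, and 48.3, 18.4 and 61.8 CPM in endothelial libraries. The populations overlapped, and endothelial replicate 2 was the lowest library. The log2 difference between erythroid and endothelial libraries was 0.16 (SE 0.40, adjusted p = 0.801, edgeR), with an interval of 1.96 SE from -0.61 to 0.94. The double positive libraries gave -0.02 (SE 0.44, adjusted p = 0.988) against endothelial and -0.18 (SE 0.45, adjusted p = 0.783) against erythroid libraries by the same edgeR fit. With scaling by library size alone, Ube2h was called lower in erythroid than in endothelial libraries (log2 difference -1.38, adjusted p = 0.0175).

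Ube2o encodes a large E2 and E3 hybrid that in mouse reticulocytes ubiquitinates ribosomal proteins and other spare proteins (chr11:116537740-116581447, minus strand, 18 exon blocks). Its level was 4.58 and 5.50 CPM in double positive libraries, 39.6, 9.19 and 13.7 CPM in erythroid libraries, and 4.62, 1.95 and 13.9 CPM in endothelial libraries. Erythroid replicate 4 was far above the others, and endothelial replicate 3 lay above 2 of the 3 erythroid libraries. The log2 difference between erythroid and endothelial libraries was 1.61 (SE 0.82, adjusted p = 0.149, edgeR), and without endothelial replicate 3 it was 2.64 and passed (adjusted p = 0.0449). It was 0.69 without erythroid replicate 4 and 0.07 under library size alone. Both double positive libraries lay below all erythroid libraries, but the difference of -2.05 on the log2 scale (SE 0.97) did not pass (adjusted p = 0.122, edgeR), and without erythroid replicate 4 it was -1.15. Against endothelial libraries the double positive difference was -0.43 (SE 0.92, adjusted p = 0.803, edgeR).

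Xpo7 encodes an export receptor that carries histones and other proteins out of the condensing erythroid nucleus in the mouse (chr14:70654246-70766628, minus strand, 29 exon blocks). Its level was 23.3 and 16.7 CPM in double positive libraries, 21.4, 19.0 and 28.7 CPM in erythroid libraries, and 21.1, 14.5 and 2.90 CPM in endothelial libraries. The populations overlapped, with endothelial replicate 3 below the rest. The log2 difference between erythroid and endothelial libraries was 0.84 (SE 0.63, adjusted p = 0.323, edgeR), with an interval of 1.96 SE from -0.39 to 2.07. The double positive difference was 0.64 (SE 0.69, adjusted p = 0.589, edgeR) against endothelial and -0.20 (SE 0.70, adjusted p = 0.848, edgeR) against erythroid libraries.

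**Figure D2:**
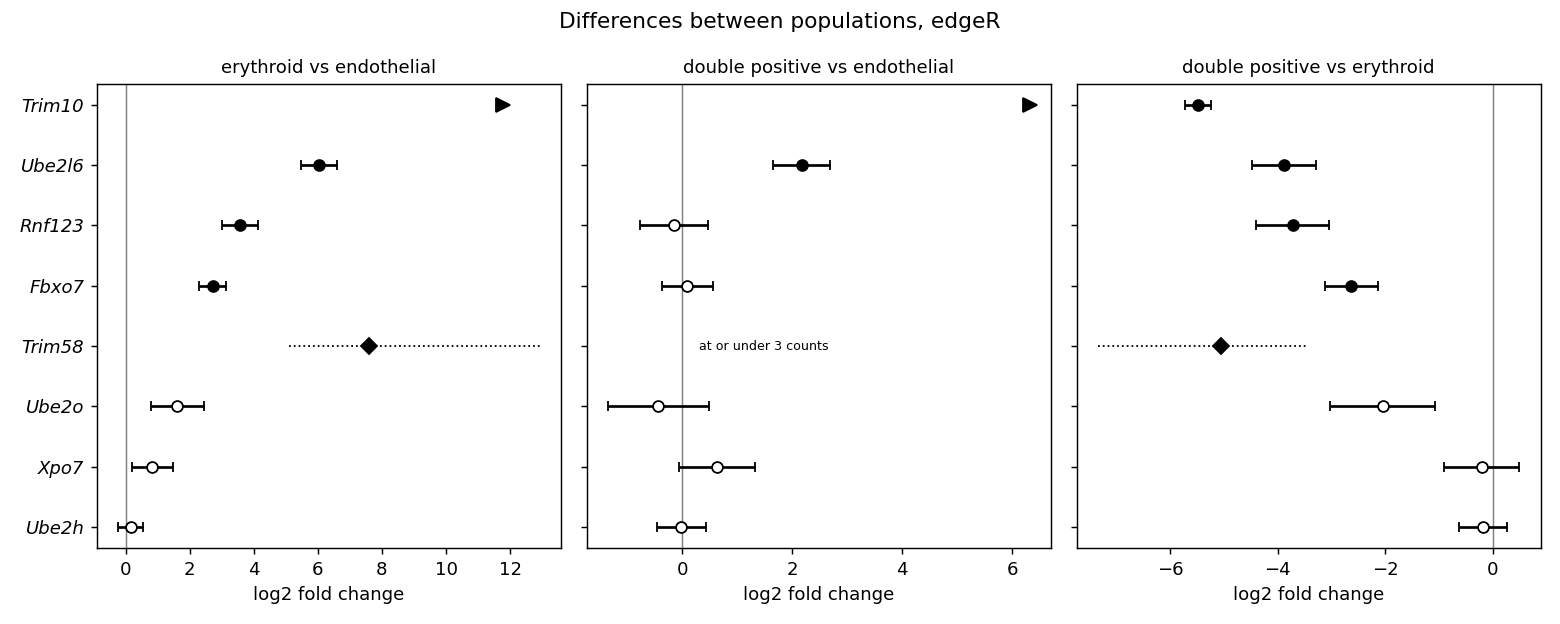
Log2 fold change (horizontal axis) of each member between erythroid and endothelial, double positive and endothelial, and double positive and erythroid libraries. Circles are edgeR estimates with bars of 1 SE, filled where the adjusted p was under 0.05, triangles mark at-least folds of Trim10 against 0 counts, and diamonds with dotted lines are count ratios of Trim58 with 95% counting intervals. In the right panel Trim10, Trim58, Ube2l6, Rnf123 and Fbxo7 lie left of 0, and Xpo7 and Ube2h lie near it.

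The double positive libraries were set against both other populations to place their level of each gene. Against endothelial libraries, 2 of the 8 genes, Trim10 and Ube2l6, were higher and none was lower by edgeR's test, where 14.6% of all genes tested were called higher and 6.92% lower, 21.6% in all. Trim10, Trim58 and Ube2l6 were the members whose double positive libraries lay above all endothelial libraries, against 32.9% of all genes (24.6% lay wholly below). Against erythroid libraries, 5 of the 8 were lower and none was higher, where 10.6% of all genes tested were called lower and 31.5% higher, 42.0% in all. Both double positive libraries lay below all erythroid libraries for 6 of the 8, those 5 and Ube2o, against 20% of all genes (47.5% lay wholly above). The median log2 difference of the 8 was 0.36 against endothelial libraries (0.06 over all genes tested) and -3.18 against erythroid libraries (0.71 over all genes). Scaled by library size alone, the 5 members were still lower than in erythroid libraries, with log2 differences of -4.57 for Trim10, -4.14 for Trim58, -2.99 for Ube2l6, -2.81 for Rnf123 and -1.72 for Fbxo7. These comparisons share libraries, so their results are not independent of each other.

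Trim10 and Ube2l6 were the 2 of 8 genes that passed both tests with the double positive level between the others, a pattern of 2.01% of all genes tested. Erythroid libraries were above both other populations for 5 of 8, against 7.63% of all genes. The double positive mean was 2.23% of the erythroid mean for Trim10, 2.78% for Trim58, 6.79% for Ube2l6, 7.54% for Rnf123 and 16.2% for Fbxo7. It was 24.2% for Ube2o, 86.8% for Xpo7 and 88.3% for Ube2h. The 12 erythroid markers ran from 3.10% for Epb42, a protein of the red cell membrane skeleton, to 11.8% for the embryonic globin Hbb-y, with a median of 5.56%. By these means alone, Trim10 stood below that range, Ube2l6 and Rnf123 within it, and Fbxo7, Ube2o, Xpo7 and Ube2h above it. The shares of Trim10 and Epb42, the lowest marker, were not separated by the spread between double positive libraries. Epb42 averaged 17.7 ± 5.82 CPM there (SD, n = 2), and Trim10 had 13.6 and 10.4 CPM. The share of Trim58 rests on 3 double positive counts, and its 95% counting interval of 0.613% to 9.07% reaches into the range, so it cannot be placed. Of the 926 genes that were higher in erythroid libraries than in both others, the lower and upper quartiles were 12.5% and 42.3%, with a median of 26.6%. The visceral endoderm marker sum was far higher in double positive libraries than elsewhere, and its part in these shares was not tested.

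**Figure D3:**
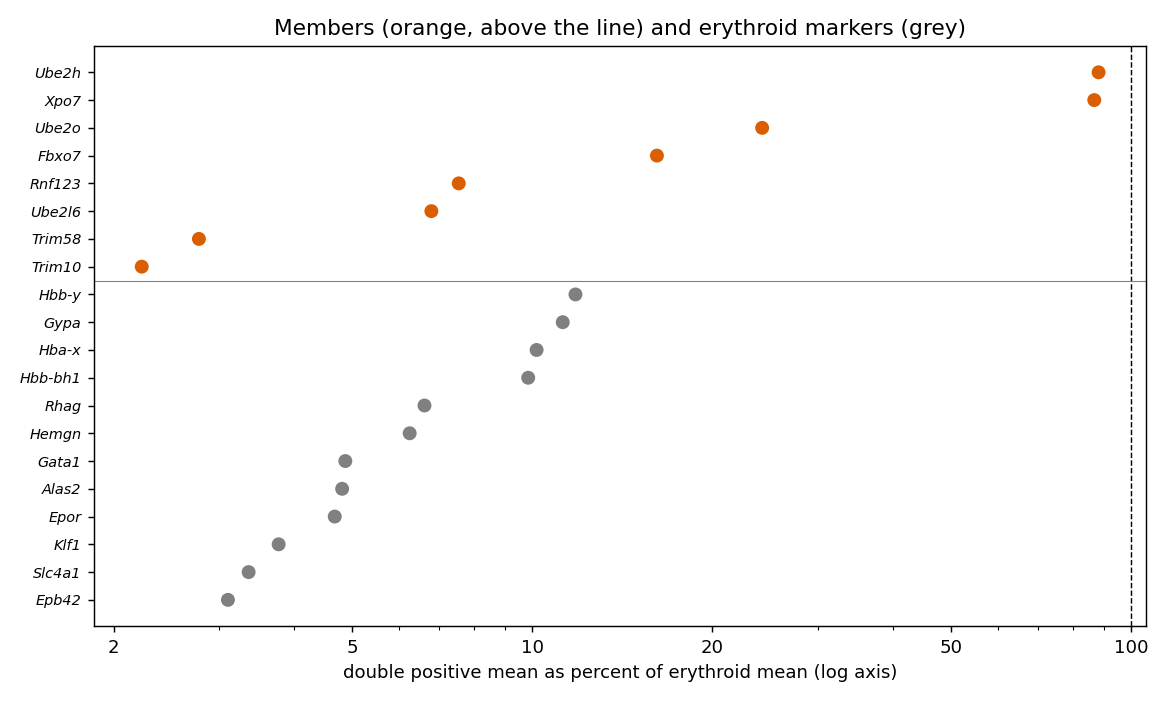
Mean level in double positive libraries as a percent of the mean in erythroid libraries (horizontal log axis) for the 8 member genes (orange) and 12 erythroid markers (grey), with a dashed line at equal means. Trim10 at 2.23% is the leftmost point, the markers span 3.10% to 11.8%, and Xpo7 and Ube2h lie close to the dashed line.

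To rank the members by level, CPM were divided by exon length, giving CPM per kilobase (kb). In erythroid libraries this level was 701 ± 75.2 CPM per kb for Ube2l6, 239 ± 20.9 for Trim10, 27.4 ± 0.876 for Fbxo7, 15.8 ± 1.08 for Rnf123 and 10.3 ± 1.18 for Ube2h (SD, n = 3). Below them came Trim58 with 4.81 ± 2.69, Ube2o with 4.0 ± 3.15 and Xpo7 with 1.47 ± 0.320 CPM per kb. The length used, all annotated exons joined, was 15676 bases for Xpo7 and 1560 to 5530 bases for the other members. The place of Xpo7 depends on that length, since before the division it averaged 23.0 CPM, Ube2o 20.8 CPM and Trim58 10.5 CPM. Trim58 and Ube2o were not separated by their spread, and their libraries also reached the level of Xpo7 at the low end. Ube2l6 was number 59 and Trim10 number 211 in order of level per kb among 11774 genes, against 3126 for Ube2h and 6602 for Xpo7. In double positive libraries Ube2l6 was again first, with 47.6 ± 19.0 CPM per kb, followed by Ube2h with 9.10 ± 0.113, Trim10 with 5.33 ± 1.0 and Fbxo7 with 4.43 ± 0.402 (SD, n = 2). Xpo7, Rnf123 and Ube2o lay between 0.968 and 1.28 CPM per kb there, and Trim58 was last with 0.134 ± 0.0575. In endothelial libraries Ube2l6, with 10.6 ± 7.87 CPM per kb, and Ube2h, with 9.20 ± 4.77, did not differ beyond their spread (SD, n = 3). Fbxo7 followed with 4.16 ± 2.90 CPM per kb, and the other 5 genes had means of 1.33 CPM per kb or less, down to 0 for Trim10.

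Within its family each gene held a different place. Among the 38 rows whose symbol begins with Ube2, most of them E2 enzymes, Ube2l6 was number 4 by level per kb in double positive, number 1 in erythroid and number 17 in endothelial libraries. It gave 7.40%, 47.5% and 1.94% of the summed level per kb of these rows in double positive, erythroid and endothelial libraries. The next row in erythroid libraries was Ube2c, the E2 enzyme of the anaphase-promoting complex, with 172 CPM per kb. Ube2h, at number 21, 18 and 20, kept a middle place in double positive, erythroid and endothelial libraries. Among 68 TRIM rows, Trim10 was number 10 in double positive libraries, number 1 in erythroid libraries and at 0 in endothelial libraries. It gave 3.07% of the summed TRIM level per kb in double positive and 67.8% in erythroid libraries. Trim58 was number 43 of the TRIM rows in double positive, 6 in erythroid and 42 in endothelial libraries. Fbxo7 was number 21, 4 and 18 of 77 F-box rows, and Rnf123 number 56, 11 and 48 of 81 RNF rows, in the same order of populations. Xpo7 was number 18, 18 and 17 of 20 nuclear transport receptors, a place that also depends on its long exon length.

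**Figure D4:**
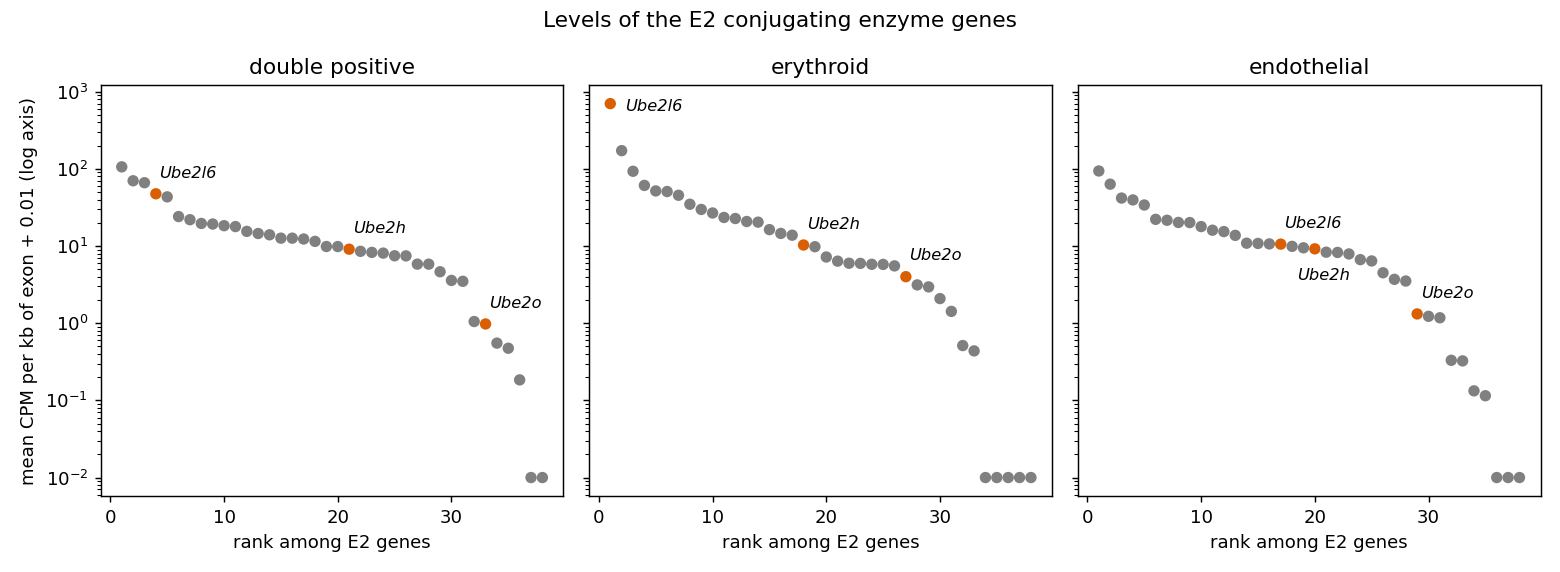
Mean level of 38 Ube2 rows in CPM per kb of exon plus 0.01 (vertical log axis) against their rank (horizontal axis) in double positive, erythroid and endothelial libraries, with Ube2l6, Ube2h and Ube2o in orange. Ube2l6 is the first point in erythroid libraries at 701 CPM per kb and is number 17 in endothelial libraries, while Ube2h stays at rank 18 to 21.

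Partners and targets of the members were read next, and their counts are set against 14.4% higher and 26.6% lower calls over all genes tested between erythroid and endothelial libraries. Scaling matters here: under library size alone the median log2 difference of all genes between erythroid and endothelial libraries moved by -1.54, and called genes were 5.47% higher instead of 35.1%. The move was -0.63 between double positive and endothelial libraries, with 37.0% higher instead of 67.9%, and 0.90 between double positive and erythroid libraries, with 92.4% instead of 74.9%. A turned sign under library size alone is given beside the gene. With globin rows and the ribosomal RNA row Rn45s left out of library size, the moves were -0.23, -0.56 and -0.34 in the same order.

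Ubac1, also called KPC2, which stabilises Rnf123 in its ligase complex, had 30.5 and 30.9 CPM in double positive libraries, 235, 210 and 220 CPM in erythroid libraries, and 4.22, 15.6 and 6.45 CPM in endothelial libraries. The 3 populations did not overlap. It was 25.4-fold higher in erythroid than in endothelial libraries (log2 difference 4.67, SE 0.44, adjusted p = 6.19e-05, edgeR), and the sign held under every scaling tried. Double positive libraries had 7.21-fold less than erythroid libraries (adjusted p = 0.00163, edgeR). The target, Cdkn1b, which encodes p27, averaged 30.9 ± 0.55 CPM in double positive libraries (SD, n = 2), 15.3 ± 4.03 CPM in erythroid libraries and 14.2 ± 4.20 CPM in endothelial libraries (SD, n = 3 each). Its log2 difference between erythroid and endothelial libraries was 0.10 (SE 0.39, adjusted p = 0.886, edgeR). The sign turned in 8 of 18 alternatives, and under library size alone the difference was -1.44 and passed. The double positive difference did not pass against endothelial (1.12, adjusted p = 0.0953) or erythroid libraries (1.01, adjusted p = 0.0843) by edgeR. Under library size alone the one against erythroid libraries was 1.92 and passed.

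Around Ube2l6, the ISG15 pathway did not move as 1 group. Uba7, the E1 enzyme of ISG15, had 6.87 and 9.36 CPM in double positive libraries, 189, 215 and 183 CPM in erythroid libraries, and 23.8, 14.8 and 10.8 CPM in endothelial libraries. Erythroid libraries were 11.8-fold above endothelial libraries (log2 difference 3.56, SE 0.31, adjusted p = 3.64e-05, edgeR), and double positive libraries were 24.0-fold below erythroid libraries (adjusted p = 5.24e-05, edgeR). Both directions held under every scaling. ISG15 itself, its mouse ligase Herc6 and its protease Usp18 had no count in any erythroid library. Such zeros were common, since 2649 of the 12136 genes tested were at 0 in only 1 of the erythroid and endothelial populations. Genes with counts numbered 8673 to 8746 in erythroid libraries and 11744 to 11884 in endothelial libraries. Isg15 had 0.191 and 0.204 CPM in double positive libraries against 5.02, 5.86 and 21.1 CPM in endothelial libraries. Herc6 had 3.44 and 3.26 CPM in double positive libraries, against 17.0, 8.79 and 19.0 CPM in endothelial libraries. Usp18 had 5.35 and 7.33 CPM in double positive libraries, against 4.49, 5.37 and 67.8 CPM in endothelial libraries, so 1 endothelial library held most of its counts. Against endothelial libraries, erythroid libraries had at least 36.1-fold less Isg15 (adjusted p = 0.00378), at least 53.0-fold less Herc6 (adjusted p = 0.000865) and at least 85.8-fold less Usp18 (adjusted p = 0.0083) by edgeR. DESeq2 gave no adjusted p for Usp18. Without endothelial replicate 3 these bounds were 18.9 for Isg15, 46.8 for Herc6 and 17.1 for Usp18, and without erythroid replicate 4 they were 21.4, 31.4 and 50.7 in that order. Of the 4 genes 1 was higher and 3 were lower in erythroid libraries, against 14.4% and 26.6% of all genes.

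Of the 11 CTLH complex genes read for Ube2h, 4 were higher in erythroid than in endothelial libraries, none was lower (14.4% and 26.6% over all genes), and their median log2 difference was 0.94, but under library size alone 1 was higher, 3 were lower and the median was -0.61. Gid4, the substrate receptor, averaged 22.6 ± 2.56 CPM in double positive, 64.6 ± 27.1 CPM in erythroid and 10.2 ± 3.70 CPM in endothelial libraries. It was 6.30-fold higher in erythroid than in endothelial libraries (adjusted p = 0.00103, edgeR), with the same sign under every scaling. Wdr26, a scaffold subunit, averaged 72.7 ± 7.57 CPM in double positive, 122 ± 20.2 CPM in erythroid and 41.4 ± 1.64 CPM in endothelial libraries, a 2.95-fold difference between erythroid and endothelial libraries (adjusted p = 0.000256, edgeR) of which 0.01 on the log2 scale was left under library size alone. Ypel5 was 2.83-fold higher (adjusted p = 0.000617) and Gid8 2.11-fold higher (adjusted p = 0.0243) in erythroid libraries by edgeR, and under library size alone their log2 differences turned to -0.04 and -0.46. The call of Gid8 was lost in 6 of 18 alternatives.

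Of the 4 Fbxo7 partners, Skp1a and Psmf1 were higher in erythroid than in endothelial libraries and none was lower (14.4% and 26.6% over all genes), while under library size alone none was higher and 3 were lower. Psmf1, which encodes PI31, averaged 34.7 ± 2.41 CPM in double positive, 68.0 ± 2.77 CPM in erythroid and 21.9 ± 9.48 CPM in endothelial libraries, 3.10-fold higher in erythroid than in endothelial libraries (adjusted p = 0.00381, edgeR), with a log2 difference of 0.08 left under library size alone. The cullin adaptor Skp1a averaged 375 ± 37.5 CPM in double positive, 196 ± 7.46 CPM in erythroid and 127 ± 21.2 CPM in endothelial libraries. Its double positive level was 2.95-fold above endothelial (adjusted p = 0.000431, edgeR) and 1.91-fold above erythroid libraries (adjusted p = 0.00268, edgeR). Its erythroid excess of 1.54-fold over endothelial libraries turned to a log2 difference of -0.92 under library size alone. Rbx1, the RING subunit, was 1.93-fold higher in double positive than in erythroid libraries (adjusted p = 0.000717, edgeR), and the log2 difference of Cul1 in erythroid against endothelial libraries was -0.05 (SE 0.20, adjusted p = 0.883, edgeR).

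Of 11 cytoplasmic dynein genes, the targets named for Trim58, 9 were tested, and 3 were lower and none higher between erythroid and endothelial libraries, with a median log2 difference of -0.36. Over all genes tested 26.6% were lower and the median was also -0.36, so the list lay near the background, and under library size alone 8 of the 9 were lower with a median of -1.90. The heavy chain gene Dync1h1 had 50.02 and 43.4 CPM in double positive libraries, 16.5, 14.6 and 28.01 CPM in erythroid libraries, and 68.2, 47.8 and 84.2 CPM in endothelial libraries. Erythroid libraries lay below both other populations, which overlapped. It was 3.39-fold lower in erythroid than in endothelial libraries (log2 difference -1.76, SE 0.34, adjusted p = 0.00285, edgeR). The light chain genes Dynlrb1 and Dynll1 were 1.78-fold (adjusted p = 0.00662) and 1.5-fold (adjusted p = 0.0231) lower by edgeR, the call of Dynll1 being lost without endothelial replicate 1, endothelial replicate 3 or erythroid replicate 4. The intermediate chain gene Dync1i2, whose protein Trim58 binds, gave -0.34 (SE 0.20, adjusted p = 0.205, edgeR).

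Around Xpo7, 19 other transport receptors were tested. In erythroid against endothelial libraries 3 were higher and 2 lower (14.4% and 26.6% over all genes), with a median of 0.33, the share higher being near the background, and under library size alone none was higher, 8 were lower and the median was -1.22. The importin gene Ipo11 was 2.06-fold lower in erythroid than in endothelial libraries (log2 difference -1.04, SE 0.16, adjusted p = 0.000735, edgeR), with the same sign under every scaling. Its level of 64.2 ± 0.994 CPM in double positive libraries stood below 122 ± 18.4 CPM in erythroid and 250.1 ± 5.86 CPM in endothelial libraries. The GTPase gene Ran, which drives nuclear transport, averaged 506 ± 78.2 CPM in double positive, 858 ± 27.5 CPM in erythroid and 371 ± 37.5 CPM in endothelial libraries. Ran was 2.31-fold higher in erythroid than in endothelial libraries (adjusted p = 0.000139, edgeR), and Rangap1, whose protein makes Ran hydrolyse its GTP, 2.19-fold (adjusted p = 0.000655, edgeR), but under library size alone their log2 differences turned to -0.33 and -0.42.

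Of 6 ubiquitin and E1 genes, 3 passed as higher and 1 as lower in erythroid libraries set against endothelial ones (14.4% and 26.6% over all genes), and under library size alone none was higher and 4 were lower. The main ubiquitin E1 gene Uba1 averaged 91.4 ± 7.56 CPM in double positive, 309 ± 27.0 CPM in erythroid and 138 ± 15.95 CPM in endothelial libraries. It was 2.24-fold higher in erythroid than in endothelial libraries (adjusted p = 0.000323, edgeR), turning to -0.38 on the log2 scale under library size alone. Double positive libraries had 3.38-fold less Uba1 than erythroid libraries (adjusted p = 0.000108, edgeR).

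In the wider families, calls went both ways. Of 37 other TRIM rows tested between erythroid and endothelial libraries, 2 were higher and 14 lower, with a median of -1.63 beside -0.36 over all genes, of which 14.4% were higher and 26.6% lower, and under library size alone 1 was higher and 23 were lower. Trim35 averaged 52.0 ± 9.63 CPM in double positive libraries, 0 in erythroid libraries and 114 ± 33.8 CPM in endothelial libraries, and Trim16, Trim47 and Trim30a were also at 0 in all erythroid libraries. Of the 37 rows, 11 were at 0 in only 1 of the erythroid and endothelial populations, against 2649 of 12136 genes. Of 30 other Ube2 rows, 8 were higher and 3 lower, and under library size alone 1 was higher and 20 lower. The largest rise among those named was Ube2t, the E2 enzyme of DNA crosslink repair, at 5.64-fold (adjusted p = 0.000312, edgeR), with the same sign under every scaling. Of 44 other F-box rows 7 were higher and 11 lower, of 63 other RNF rows 8 were higher and 9 lower, and of 46 USP deubiquitinase rows 11 were higher and 7 lower. The F-box and RNF shares higher lie near the 14.4% of all genes, and under library size alone the counts were 2 higher and 22 lower (F-box), 1 and 38 (RNF) and 2 and 22 (USP), which turns the balance of the USP rows. With globin rows and Rn45s left out of library size, the USP rows stayed at 11 higher and 7 lower. Fbxo9 was 5.49-fold higher (adjusted p = 8.88e-05), Fbxo6 5.43-fold (adjusted p = 0.000241) and Rnf10 6.32-fold (adjusted p = 4.52e-05) in erythroid than in endothelial libraries by edgeR, each with the same sign under every scaling.

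**Figure D5:**
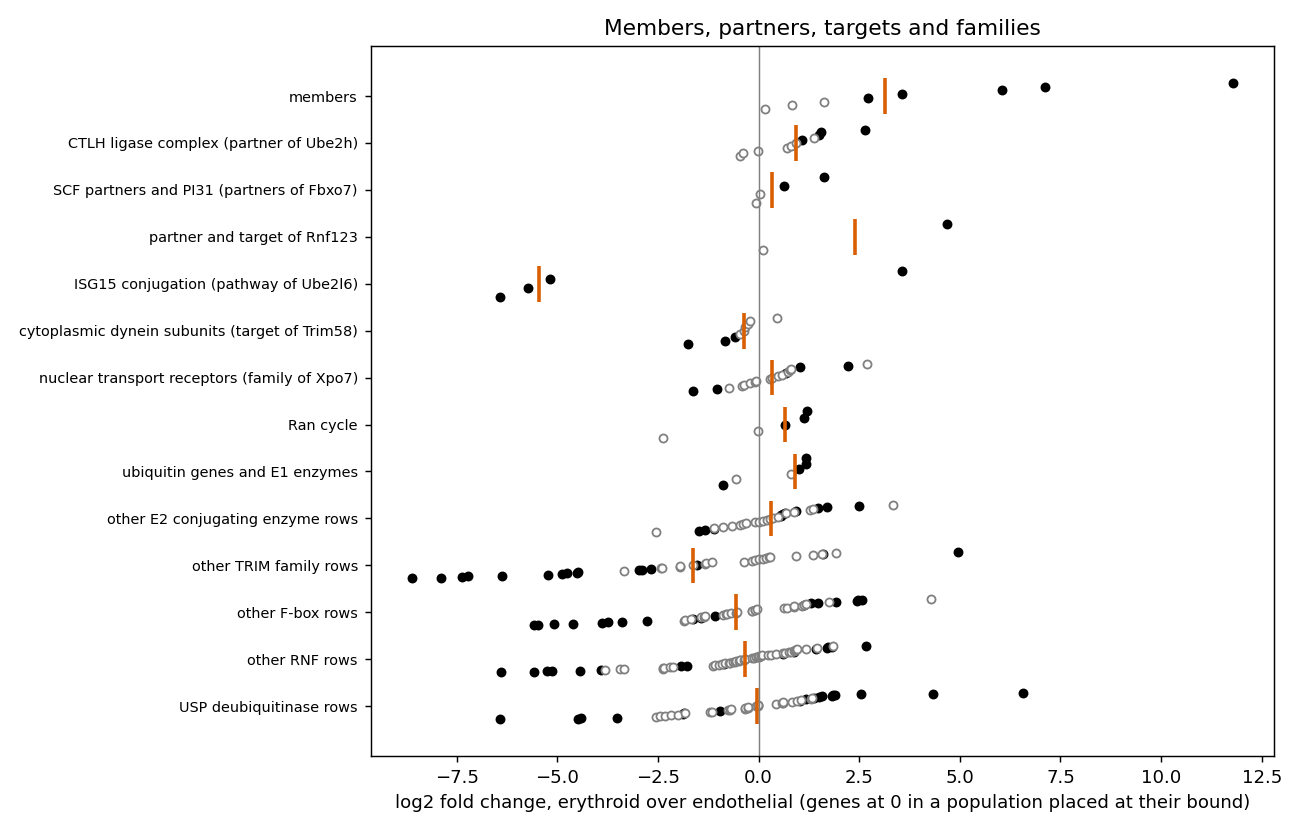
Log2 fold change of erythroid over endothelial libraries (horizontal axis) for each tested gene (points, filled where the adjusted p was under 0.05) of the members and of 13 lists, with genes at 0 in a population placed at their bound and the list median as an orange line. The median of the members is 3.15, that of the other TRIM rows is -1.63, and the ISG15 list holds Uba7 on the right and 3 genes on the left. Under library size alone the medians of the CTLH, SCF, transport receptor, Ran, ubiquitin and other E2 lists turn negative. With globin rows and Rn45s left out of library size they were 0.71, 0.10, 0.10, 0.43, 0.68 and 0.12 in that order.

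The genes most like each member were found by the root mean square distance between centred log2(CPM + 1) profiles over the 8 libraries, among 3767 genes. For Trim10 they were the membrane skeleton gene Epb42 at 0.317, Adra2b at 0.383 and the erythroblast membrane gene Ermap at 0.436. For Ube2l6 they were Plek2 at 0.320, Fam46c at 0.507 and Tspan32 at 0.540. Rnf123 was nearest to the cyclin gene Ccnd3 at 0.408, Ucp2 at 0.417 and the ferritin receptor gene Ncoa4 at 0.419. For Fbxo7 they were Golph3l at 0.281, Rnaseh2c at 0.285 and Pitrm1 at 0.310, and for Trim58, whose low counts are flattened on this scale, Gtpbp1 at 0.432, Rnf10 at 0.455 and Ifrd2 at 0.495. Ube2h was nearest to the kinetochore gene Ndc80 at 0.226, Tinagl1 at 0.237 and Nfx1 at 0.265. Xpo7 had Hspa14 at 0.475, Ldah at 0.480 and Mrps35 at 0.480, and Ube2o had Farsa at 0.541, Rngtt at 0.543 and Pola1 at 0.557. Among the members themselves the nearest pair was Rnf123 and Fbxo7 at 0.444, and the farthest was Trim10 and Ube2h at 3.83. The 8 libraries fall into 3 populations, so these distances describe 3 levels and the spread around them.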

How the data were processed

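RNA from 8 pools of 24 or 25 sorted cells was made into libraries by Smart-seq2 (14 PCR cycles), per the labels, a method that reads whole transcripts and carries no molecular identifiers. The authors deposited raw, unscaled counts for each gene symbol. FastQC, HTSeq and the build mm10 are named in the submitters' processing notes, while versions, aligner, annotation and strandedness were not given in the sources used here. The members and lists were chosen with earlier results of these data known. Counts were fitted with edgeR 4.0.16 (R 4.3.3) by quasi-likelihood with robust estimation over all 8 libraries, trimmed mean of M values (TMM) factors, filterByExpr with a minimum count of 10 (12136 of 24454 genes kept) and Benjamini-Hochberg adjustment over all tested genes, two-sided, threshold 0.05. The common biological coefficient of variation was 0.541. The fit was also run on counts simulated from its own estimate of the spread, with no difference between populations except those put in. Such counts do not test the scaling between populations. CPM use effective library sizes. Against a population with 0 counts, folds use a floor of 3 counts over the group, and with 1 to 3 counts a ratio is given with a 95% counting interval. That interval rests on the counts summed over each group, without the spread between pools. Positions and exon lengths come from GENCODE M21 basic (GRCm38), and promoters from RefSeq (GRCm38.p6). All 8 members could be named, with at most 4 genes of each list by the smallest adjusted p between erythroid and endothelial libraries (any gene of a list of 6 or fewer), and the 3 genes most like each member among tested genes with at least 50 CPM in their highest population. Other listed genes stand only in the counts. The values of 1 listed gene are not reported here. No 2 libraries were identical. Alternatives were DESeq2 1.42.0, limma-voom (limma 3.58.1), RLE (relative log expression) factors, library size with no factor, the removal of globin rows and the ribosomal RNA row Rn45s from TMM or from library size, no filter, a minimum count of 50, no robust estimation, the 2 populations compared alone, and each library left out.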

Additional observations from a re-analysis of the deposited data

How the results depend on the processing

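The calls of Trim10, Ube2l6, Rnf123 and Fbxo7 between erythroid and endothelial and between double positive and erythroid libraries kept their direction and passed in all 18 alternatives, and that of Trim58 between erythroid and endothelial libraries in all 17 that could test it (at a minimum count of 50 it was left out). Trim10 between double positive and endothelial libraries passed in all 18. Ube2l6 between double positive and endothelial libraries passed in 14 of 18, and was also lost under library size without globin rows and Rn45s (1.60, adjusted p = 0.0544). Under library size alone, Ube2h made 1 member lower in erythroid than in endothelial libraries, 1 member was higher in double positive than in endothelial libraries, and the double positive level lay between the others for 1. Over all genes that scaling gave 420 higher and 7265 lower (erythroid against endothelial), 1118 and 1901 (double positive against endothelial), and 5754 and 474 (double positive against erythroid). Library size without globin rows and Rn45s gave 1 member higher in double positive than in endothelial libraries and 1 between, with 1167 genes higher and 1689 lower. Lower genes between double positive and endothelial libraries numbered 1415 by DESeq2 and 1422 with only those populations fitted, against 840 in the fit with all libraries. With 1 library left out, members higher in erythroid than in endothelial libraries numbered 5 to 6 and lower 0, with 1466 to 1612 genes higher and 2707 to 3158 lower. For double positive against endothelial libraries the ranges were 1 to 3 and 0 members, 696 to 1854 genes higher and 219 to 1039 lower. For double positive against erythroid libraries they were 4 to 5 members lower and 0 higher, 2315 to 3845 genes higher and 609 to 1348 lower, and members between numbered 1 to 3. Where 1 double positive library was left, it was assumed to vary like the other groups.

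Among members, the signs that turned were those of differences that had not passed. For erythroid against endothelial libraries, Ube2h gave -0.030 (RLE), -1.38 (library size alone), -0.065 (library size without globin rows and Rn45s), -0.030 (DESeq2) and -0.21 to 0.51 with 1 library left out, and Xpo7 -0.71 (library size alone). For double positive against endothelial libraries, Fbxo7 gave -0.038 (RLE), -0.54 (library size alone), -0.47 (library size without globin rows and Rn45s), -0.039 (TMM without them), -0.039 (DESeq2) and, with 1 library left out, -0.20 (endothelial replicate 1) to 0.82 (endothelial replicate 2). In the same comparison limma-voom gave 0.0047 for Ube2o, 0.22 for Rnf123 and 0.13 for Ube2h. With 1 library left out, Ube2h ran from -0.39 to 0.33, Rnf123 from -0.53 to 0.85 and Ube2o from -0.88 to 0.59. For double positive against erythroid libraries, Xpo7 gave 0.72 (library size alone) and -0.46 to 0.048 with 1 library left out, and Ube2h 0.73 (library size alone). The cause was not tested. No paired analysis was possible because the replicate numbers 1 to 8 are not shared between populations. With 2 or 3 pools of 24 or 25 cells and as few as 1 to 3 counts for Trim58, small differences were not detectable at this depth, and a difference that did not pass is not shown to be absent.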
